A study of Mus musculus with 8 samples.

Results

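Amelx, Ambn and Enam encode amelogenin, ameloblastin and enamelin, the structural proteins of the enamel matrix. They were chosen by name, and their 3 rows were compared between ages in a deposited table of 54532 genes. The libraries came from first molars of C57BL/6 wt mice that received no treatment, at postnatal day 5 (P5, secretory stage) or day 12 (P12, maturation stage). Each age had 4 libraries (replicates 1, 3, 4 and 5 at P5, and 1, 2, 3 and 4 at P12), and a library was a pool of the enamel organs of 5 pups without the soft pulp tissue. RNA was captured by its polyA tail, so that the values measure messenger RNA of whole pools and not of single ameloblasts.

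Enamel is laid down by ameloblasts, epithelial cells that pass through distinct stages. Secretory ameloblasts release the matrix proteins into the space where mineral ribbons form, with amelogenin as the main component. Maturation ameloblasts then clear the cleaved proteins and move ions while the crystals thicken. Amelogenin is the bulk matrix protein, ameloblastin contributes to matrix organisation and to the attachment of ameloblasts, and enamelin is a large protein needed for crystals to form and lengthen.

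The genes lie at distinct places on the mouse assembly GRCm38. Amelx (ENSMUSG00000031354) spans chrX:169176114-169187200 on the reverse strand, inside the span of Arhgap6, a gene for a GTPase activating protein on the forward strand. Ambn (ENSMUSG00000029288) spans chr5:88455991-88468531 and Enam (ENSMUSG00000029286) spans chr5:88487975-88506049, both on the forward strand and 19443 bases apart, with no other protein-coding gene listed between them. None of the exonic bases of the 3 genes (0%) were shared with exons of another gene in GENCODE M21. The gene models were 999 bases long for Amelx, 1919 for Ambn and 5490 for Enam.

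Because all 3 genes moved in 1 direction with age, the 250 bases before each RefSeq transcription start are shown, on the strand of the gene and from the GRCm38.p6 promoter table. They lie at chrX:169187210-169187459 (reverse strand) for Amelx, chr5:88455741-88455990 for Ambn and chr5:88487725-88487974 for Enam. Capitals mark every match to the 6 motifs searched on both strands, namely the TATA box TATAAA, the CCAAT box written as CCAAT, which reads ATTGG on the other strand, the C/EBP motif TTGCNNAA, the homeodomain core TAATTG, the Runx motif TGTGGT and the GC box GGGCGG.
Amelx: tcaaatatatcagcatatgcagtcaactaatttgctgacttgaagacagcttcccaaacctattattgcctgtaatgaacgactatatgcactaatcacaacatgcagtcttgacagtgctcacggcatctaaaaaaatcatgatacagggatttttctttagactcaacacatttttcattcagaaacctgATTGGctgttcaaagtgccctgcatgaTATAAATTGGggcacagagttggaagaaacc
Ambn: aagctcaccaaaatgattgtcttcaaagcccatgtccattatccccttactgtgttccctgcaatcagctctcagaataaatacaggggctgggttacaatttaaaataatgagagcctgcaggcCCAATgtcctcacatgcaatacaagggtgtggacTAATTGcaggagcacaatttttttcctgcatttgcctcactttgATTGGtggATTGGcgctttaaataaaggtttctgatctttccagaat
Enam: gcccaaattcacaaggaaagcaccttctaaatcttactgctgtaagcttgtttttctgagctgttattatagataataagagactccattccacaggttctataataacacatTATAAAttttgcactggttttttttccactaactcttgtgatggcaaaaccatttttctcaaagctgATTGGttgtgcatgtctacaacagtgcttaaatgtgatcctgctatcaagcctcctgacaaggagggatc

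All 3 windows held a CCAAT box match, which 33.8% of the 32851 promoter windows in the table also held. The match nearest to the start began 26 bases before it in Amelx, 39 in Ambn and 70 in Enam. TATAAA occurred in 2 of the 3 windows, beginning 31 bases before the start of Amelx and 137 before that of Enam, against 12.4% of all windows. In Amelx the TATAAA match and the nearer ATTGG overlap by 1 base. TAATTG occurred in Ambn alone, against 7.17% of all windows. The letters of the C/EBP, Runx and GC box motifs were in none of the 3 windows and in 9.56%, 14.0% and 32.7% of all windows. The windows were AT-rich, with a GC content of 38.4% for Amelx, 42% for Ambn and 37.6% for Enam against a median of 52.4%.

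Total counts were 16574548 to 20262601 at P5 and 17588152 to 22013456 at P12. The pools were of enamel organ, and all 8 dental epithelium markers, among them Krt5, Krt14, Cdh1, Epcam, Trp63, Perp and Dsp, were detected in every library. Their summed normalized count ranged from 123865 to 132342 at P5 and from 311274 to 382899 at P12. Detection of these markers does not show how much of the RNA was epithelial. The pools also held RNA of other cells. Dspp, a defining gene of odontoblasts, stood at 158556 ± 23095 normalized counts (SD, n = 4) in P5 pools and 167051 ± 12929 (SD, n = 4) in P12 pools, and the summed normalized count of 8 odontoblast and mesenchyme markers ranged from 1025778 to 1218813 at P5 and from 906606 to 1189673 at P12. All 8 oral mucosa markers were called higher at P12 (a call is defined in the next paragraph), beside 28.8% of all genes tested. Their sum ranged from 549 to 999 at P5 and from 4246 to 35460 at P12, lowest at P12 in replicate 4. Of the 8 odontoblast and mesenchyme markers 3 were called higher and 2 lower. Of 7 markers of endothelium, blood and immune cells 5 were called higher and 1 lower. Among all genes tested 28.8% were called higher and 28.4% lower, so that such counts alone do not show a change of these cells. In such pools, fewer ameloblasts and less messenger RNA per ameloblast cannot be told apart.

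All 3 enamel matrix genes were lower at P12, and their falls were of very different size. The log2 fold change was -9.95 for Enam, -5.74 for Amelx and -2.57 for Ambn, so that P5 means were 986, 53.5 and 5.93 times the P12 means. Here a normalized count is a count divided by the library's TMM-scaled size and multiplied by the mean of those sizes, and a gene was called when edgeR's quasi-likelihood test gave a Benjamini-Hochberg adjusted p under 0.05 over the 16440 genes with enough counts. All 3 genes passed the filter on low counts. Of all genes tested, 28.4% were called lower and 28.8% called higher at P12, and 26.6% had every P12 library below every P5 library, so that a call alone does not set these genes apart. Scaled by total count, 8877 genes were called higher and 2330 lower in place of 4735 and 4676, and the median over all genes tested moved from 0.01 to 0.38 on the log2 scale. Under total count scaling the log2 fold changes of Enam, Amelx and Ambn were -9.59, -5.40 and -2.21. Relative to that median they stood at -9.97, -5.78 and -2.59.

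Enam, normalized across libraries, stood at 639664, 583034, 599513 and 536808 in P5 replicates 1, 3, 4 and 5. At P12 it stood at 493, 230, 686 and 984 in replicates 1 to 4. The lowest P5 library was 546 times the highest P12 library. The log2 fold change was -9.95 (SE 0.47, edgeR adjusted p = 2.4e-08), and no other gene of the 16440 tested had a lower fitted value. Before normalization 673, 272, 740 and 980 reads were counted on Enam at P12, each above the floor of 3 counts. Passing that floor does not by itself show that the transcript was made in these pools. As shares of all counts these Enam reads were 0.00306% (Wilson 95% interval 0.00283% to 0.00330%), 0.00139% (0.00124% to 0.00157%), 0.00410% (0.00382% to 0.00441%) and 0.00557% (0.00523% to 0.00593%). The intervals cover counting error only, since reads carried no molecular identifiers, and none of them overlapped, so that the P12 pools differed from each other beyond counting error.

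Amelx was at 2731287, 2631322, 2836845 and 2621872 normalized counts in P5 replicates 1, 3, 4 and 5. In P12 replicates 1 to 4 it was at 24448, 23064, 58081 and 96613. Replicates 3 and 4 were high and replicates 1 and 2 low among the P12 pools, and the lowest P5 library was still 27.1 times the highest P12 library. The log2 fold change was -5.74 (SE 0.49, edgeR adjusted p = 2e-06), and 24 of the 16440 genes had a lower value.

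Ambn was at 2049545, 1961995, 2117515 and 1783480 normalized counts in P5 replicates 1, 3, 4 and 5. In P12 replicates 1 to 4 it was at 208344, 237173, 370379 and 518550. The ages did not overlap, with the lowest P5 library at 3.44 times the highest P12 library. The log2 fold change was -2.57 (SE 0.28, edgeR adjusted p = 1.5e-05), and 391 genes had a lower value. Ambn therefore remained among the most abundant transcripts at P12, ranking 4, 4, 2 and 1 among protein-coding genes by count in replicates 1 to 4.

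**Figure D1:**
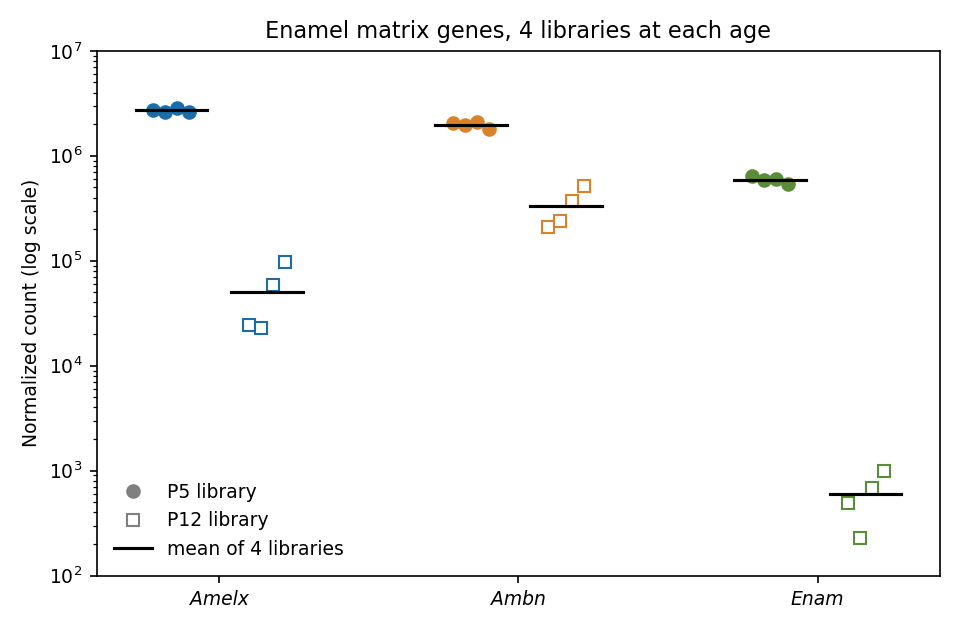
Normalized counts (log axis) of Amelx, Ambn and Enam in each of the 4 P5 libraries (filled circles) and 4 P12 libraries (open squares), with black bars at the means. The ages do not overlap for any of the 3 genes, and the gap between the P5 and P12 means is 986 times for Enam, 53.5 times for Amelx and 5.93 times for Ambn.

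For the 3 members, the pools of an age were closer to each other at P5 than at P12. The standard deviation of the log2 normalized count was 0.05 for Amelx, 0.11 for Ambn and 0.10 for Enam at P5, and 1.003, 0.60 and 0.89 at P12 (n = 4 in each). The highest P12 library was 4.19 times the lowest for Amelx, 2.49 times for Ambn and 4.29 times for Enam. For all 3 genes replicate 4 was the highest P12 library and replicate 3 the next. This order was not particular to genes that fell. It also held for Mmp20, which was lower at P12, and for Amtn, Klk4 and Odaph, which were higher, but not for Odam. Amtn, for example, was at 34276, 42585, 56441 and 76919 normalized counts in P12 replicates 1 to 4. Replicate 4 also had the lowest sum of the 8 oral mucosa markers at P12 (4246 normalized counts against 22606 to 35460 in the others) and the lowest sum of the 8 dental epithelium markers (311274 against 350526 to 382899). The part of these differences in the higher matrix gene counts of that pool was not tested. Without P12 replicate 4 the log2 fold changes were -10.30 for Enam, -6.27 for Amelx and -2.87 for Ambn, so that each fall was larger without that library. Expressed against the P5 mean, replicate 4 retained 0.167% of Enam, 3.57% of Amelx and 26.2% of Ambn, and replicate 2 retained 0.0389%, 0.853% and 11.99%.

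As a share of all counts, the 3 genes together took 24.9%, 24.1%, 25.4% and 23.0% of P5 replicates 1, 3, 4 and 5. They took 1.45%, 1.58%, 2.57% and 3.49% of P12 replicates 1 to 4. The highest P12 pool was thus well below the lowest P5 pool.

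Amelx alone took 12.5% ± 0.358 (SD, n = 4) of the counts at P5 and 0.297% ± 0.192 (SD, n = 4) at P12. Ambn took 9.13% ± 0.592 at P5 and 1.97% ± 0.761 at P12. Enam took 2.72% ± 0.176 at P5 and 0.00353% ± 0.00176 at P12. Each share differed between the ages without overlap (exact permutation test with 70 ways to split the libraries, two-sided p = 0.0286, the smallest that 4 against 4 allow, and 0.0286 after Benjamini-Hochberg adjustment over the 3 shares). Counting error was small beside this, with Wilson 95% half-widths of at most 0.0162 percentage points for Amelx and Ambn. The difference in share depended on gene length. As a share of reads per kilobase, the P12 minus P5 difference was -25.9 percentage points for Amelx in place of -12.2, and -1.06 for Enam in place of -2.72.

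**Figure D2:**
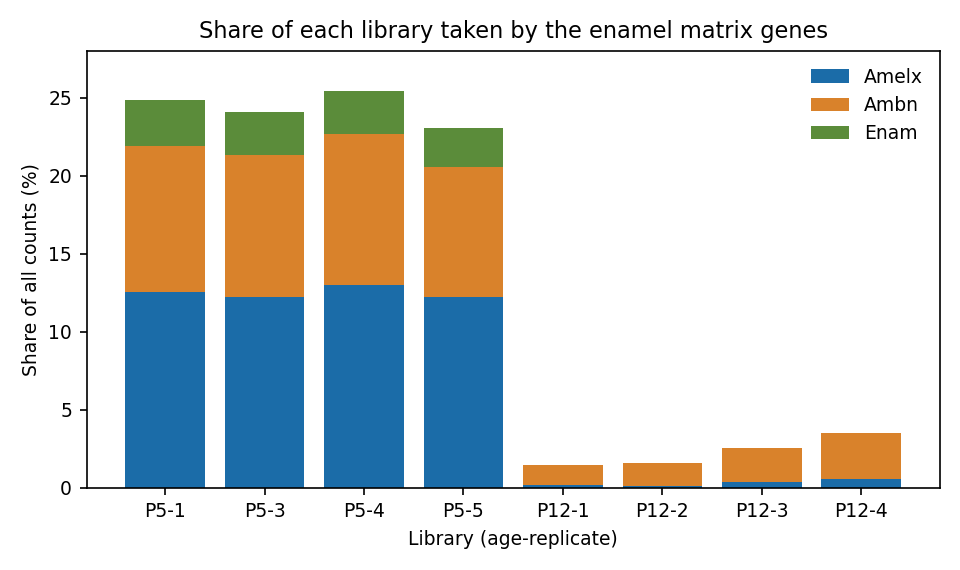
Stacked bars give the share of all counts (%) taken by Amelx, Ambn and Enam in each library. The bars reach 23.0% to 25.4% at P5 and 1.45% to 3.49% at P12, where Ambn makes up 84.2% to 91.1% of the height.

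By count, Amelx ranked 1 and Ambn 2 among protein-coding genes in all 4 P5 libraries, and Enam ranked 3 or 4. At P12 Amelx ranked 31, 36, 13 and 12 in replicates 1 to 4, and Enam ranked 6455, 9185, 5216 and 3819. Enam thus passed from the few most abundant transcripts to the middle of the expressed genes. Per kilobase, the scale on which levels of different genes can be compared, the level at P5 was 2708040 ± 100786 normalized counts per kilobase (SD, n = 4) for Amelx, 1030815 ± 75322 for Ambn and 107423 ± 7753 for Enam. At P12 it was 50602 ± 34749 for Amelx, 173847 ± 74030 for Ambn and 109 ± 57.9 for Enam. The order of the levels at P5 was therefore Amelx, Ambn, Enam in every library, and at P12 it was Ambn, Amelx, Enam in every library.

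The make-up of the 3-gene set was steady within P5 and changed at P12. Of their summed reads per kilobase, Amelx made up 69.8% to 71.9%, Ambn 25.5% to 27.3% and Enam 2.68% to 2.97% in the P5 libraries. In the P12 libraries Amelx made up 15.7% to 26.3%, Ambn 73.6% to 84.2% and Enam 0.0285% to 0.0675%.

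The ratio between a pair of these genes within a library does not depend on library scaling, and it tests whether they changed unequally. Reads on Amelx outnumbered those on Ambn by 1.33, 1.34, 1.34 and 1.47 times in P5 replicates 1, 3, 4 and 5. In P12 replicates 1 to 4 Ambn outnumbered Amelx by 8.52, 10.3, 6.38 and 5.37 times. The log2 ratio of Amelx to Ambn was 0.45 ± 0.07 (SD, n = 4) in P5 pools and -2.89 ± 0.42 (SD, n = 4) in P12 pools, a change of -3.34. Per kilobase, Amelx stood at 2.56 to 2.82 times Ambn at P5, and Ambn at 2.79 to 5.35 times Amelx at P12.

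Amelx reads outnumbered Enam reads by 4.27, 4.51, 4.73 and 4.88 times in P5 replicates 1, 3, 4 and 5. At P12 they did so by 49.5, 100.5 and 84.7 times in replicates 1, 2 and 3 and by 98.2 times in replicate 4. The log2 ratio was 2.20 ± 0.08 (SD, n = 4) in P5 pools and 6.32 ± 0.48 (SD, n = 4) in P12 pools, a change of 4.12. Although both genes fell steeply, the ratio of Amelx to Enam was thus higher in every P12 pool than in any P5 pool.

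The neighbouring genes Ambn and Enam diverged the most. Ambn reads outnumbered Enam reads by 3.20, 3.37, 3.53 and 3.32 times in P5 replicates 1, 3, 4 and 5, and by 422, 1033, 540 and 527 times in P12 replicates 1 to 4. The log2 ratio of Ambn to Enam was 1.75 ± 0.06 (SD, n = 4) in P5 pools and 9.21 ± 0.55 (SD, n = 4) in P12 pools, a change of 7.46. Replicate 2 was the highest P12 pool in this ratio and the lowest in Enam itself. All 3 ratios were without overlap between the ages (exact permutation test, two-sided p = 0.0286 for each, and 0.0286 after Benjamini-Hochberg adjustment over the 3 ratios).

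**Figure D3:**
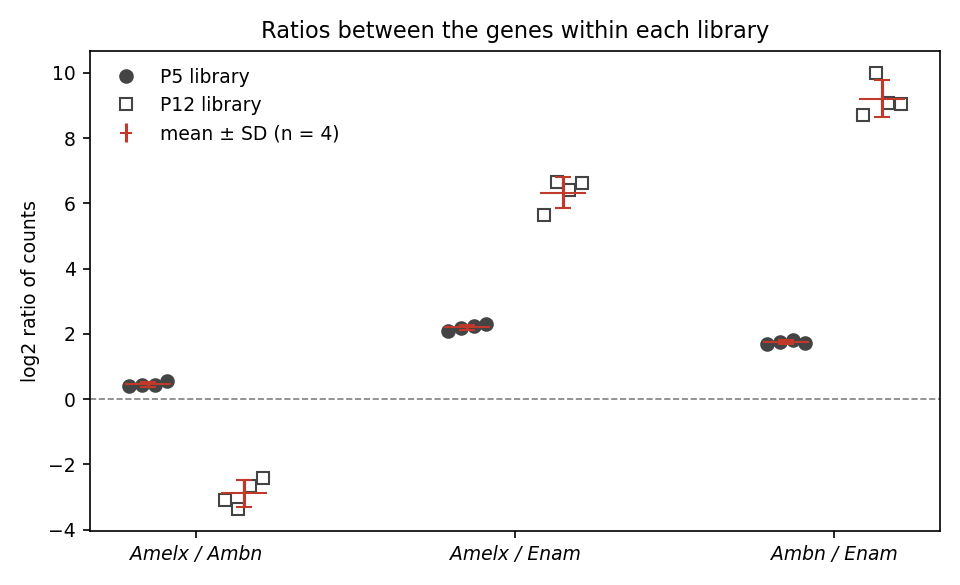
The log2 ratio of counts (pseudocount 1) for each pair of genes in every P5 library (filled circles) and P12 library (open squares), with mean ± SD (n = 4) in red and a dashed line at equal counts. The ratio of Amelx to Ambn passes from above to below the line, and the ratios to Enam rise from 2.20 to 6.32 and from 1.75 to 9.21.

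Measured against the epithelium, the 3 genes were also lower at P12. The log2 ratio of a gene's count to the summed count of the 8 dental epithelium markers was 4.38 ± 0.04 for Amelx, 3.93 ± 0.11 for Ambn and 2.18 ± 0.11 for Enam at P5 (SD, n = 4). At P12 it was -3.05 ± 1.11, -0.16 ± 0.70 and -9.38 ± 1.01, so that only P12 replicates 3 and 4 held more Ambn reads than marker reads. The differences were -7.44 for Amelx, -4.09 for Ambn and -11.56 for Enam (exact permutation test, two-sided p = 0.0286 for each, and 0.0286 after Benjamini-Hochberg adjustment over the 3 genes). The markers themselves did not stay level. Krt14 and Krt5, keratins of basal epithelial cells, had log2 fold changes of 2.22 (edgeR adjusted p = 5.3e-08) and 1.30 (adjusted p = 5.6e-07), Dsp rose by 1.22 and Epcam by 0.998, Cdh1 fell by 0.31, and Trp63 and Perp were not called. The summed oral mucosa markers given above were also higher in every P12 pool than in any P5 pool, and oral mucosa too expresses Krt5 and Krt14. The part of that signal in these ratios was not tested. Against Cdh1 and Epcam alone the differences were -5.87, -2.53 and -9.99.

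The other genes of the secreted enamel matrix and its proteases did not share one direction. Of the 8 genes in this list 4 were called lower at P12, namely the 3 members and Mmp20, and 4 were called higher. Among all genes tested, 28.4% were called lower and 28.8% higher. The median log2 fold change of the 8 genes was -0.47 against 0.01 over all genes tested. That median includes the 3 members, and apart from them only Mmp20 was lower. Mmp20, the protease of the secretory stage that cleaves the matrix proteins, was at 26182, 25999.5, 26473 and 24399 normalized counts in P5 replicates 1, 3, 4 and 5 and at 3755, 3811, 4488 and 5536 in P12 replicates 1 to 4. Its log2 fold change of -2.55 (SE 0.12, edgeR adjusted p = 3e-08) was close in size to that of Ambn. Klk4, the protease of the maturation stage, stood higher at P12, by 3.22 on the log2 scale (edgeR adjusted p = 4.9e-05).

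Odam and Amtn, which encode proteins of the specialised basal lamina between maturation ameloblasts and enamel, had log2 fold changes of 4.57 (edgeR adjusted p = 2.8e-07) and 1.86 (adjusted p = 0.0012). Odaph, which encodes a phosphoprotein needed for enamel maturation, rose by 1.61 (adjusted p = 3.5e-04). Per kilobase, the mean level of Odam at P12 was 247119 normalized counts against 173847 for Ambn, and Odam was the higher of the pair in replicates 1, 2 and 3 and Ambn in replicate 4. P5 replicate 5 was the lowest P5 library for these 4 rising genes, for example at 703 normalized counts of Klk4 against 2586 to 3589 in the others. It was also the lowest P5 library for Mmp20 and the 3 members, whose normalized counts there were 90.2% to 96.9% of their P5 means.

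**Figure D4:**
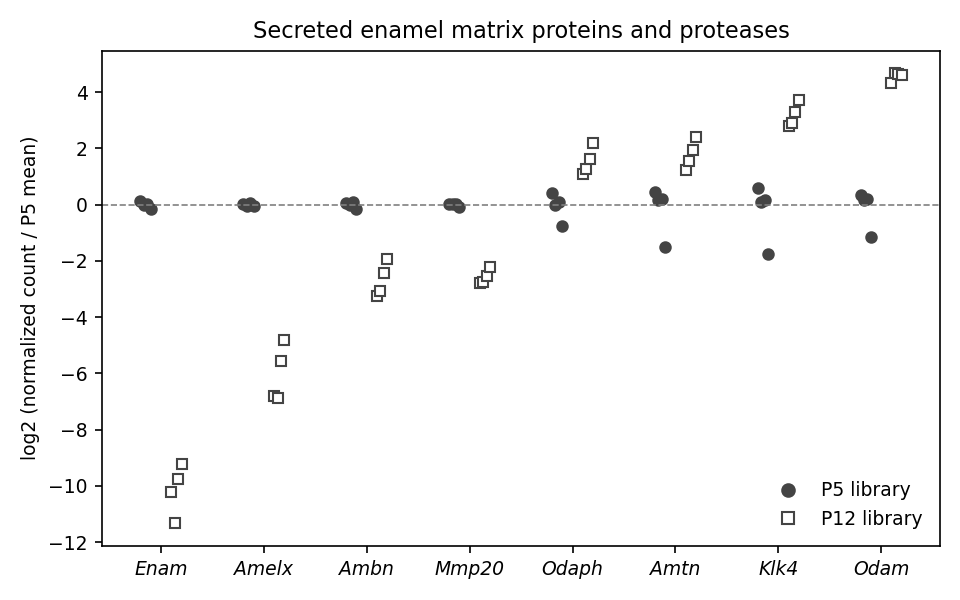
Each gene's normalized count relative to its P5 mean, on a log2 scale, in every P5 library (filled circles) and P12 library (open squares), for the 8 genes of the secreted enamel matrix and its proteases ordered by log2 fold change. Enam, Amelx, Ambn and Mmp20 lie below the dashed P5 level at P12, and Odaph, Amtn, Klk4 and Odam lie above it.

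Amelx, Ambn and Enam belong to the secretory calcium-binding phosphoprotein (SCPP) genes, a family that also holds genes of bone, dentine, saliva and milk. Of 19 SCPP genes listed, 18 were analysed and 12 were tested. Of these 12, 5 were called higher, 5 lower and 2 not called, beside 28.8% higher and 28.4% lower among all genes. The median log2 fold change was -0.03 against 0.01 over all genes. Those called lower were the 3 members, Csn3 and Dmp1, and none of those called higher was a member. The lower calls and the median thus rest in part on the members. Of the 5 called lower, Dmp1 had an adjusted p of 0.049 and lost its call under 5 of the 6 alternatives tried on this list, namely total count scaling, TMM without the 3 members, TMM without the 20 most abundant genes, and leaving out P5 replicate 5 or P12 replicate 4. The casein gene Csn3, best known from milk, was lower at P12, at 14951, 14900, 13841 and 2103 normalized counts in P5 replicates 1, 3, 4 and 5 and 233, 303, 445 and 580 in P12 replicates 1 to 4 (log2 fold change -4.88, SE 0.57, edgeR adjusted p = 2.4e-05). P5 replicate 5 stood far below the other P5 pools for Csn3. Of the other caseins listed, Csn1s1 and Csn2 had 0 counts in every library, and Csn1s2a and Csn1s2b had at most 3.

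Of the other genes beside the 3 members on their chromosomes, none that was tested was called lower at P12, beside 28.4% of all genes tested. Amtn, which lies 70074 bases before Ambn, rose as given above, and Jchain, which lies 13759 bases after Enam and encodes the joining chain of antibodies, had at most 3 counts in any library. Utp3, the next gene after it, rose by 0.29 on the log2 scale (edgeR adjusted p = 0.026). Prol1, which lies before Amtn, had at most 2 counts. Arhgap6, in whose span Amelx lies, was at 147 ± 34.8 normalized counts (SD, n = 4) in P5 pools and 239 ± 100 (SD, n = 4) in P12 pools, and was not called (log2 fold change 0.70, adjusted p = 0.056). Next to Amelx, Hccs, Frmpd4 and Mid1 were not called and Msl3 rose by 0.56 (adjusted p = 1.8e-04).

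Many genes in which mutations cause amelogenesis imperfecta, the inherited enamel defects, differed between the ages. Of 27 such genes listed, all were tested, and 16 were called lower and 11 higher, beside 28.4% and 28.8% of all genes. The median log2 fold change was -0.94 against 0.01 over all genes. The lower calls and the median include the 3 members. After Enam and Amelx, the largest changes were rises of Wdr72, a vesicle trafficking gene of maturation ameloblasts (3.97, edgeR adjusted p = 4.9e-08), and of Slc24a4, which encodes the exchanger Nckx4 (3.46, adjusted p = 7.1e-05). The members filled 2 of the 3 places with the lowest log2 fold changes, beside Relt at -3.21. Relt was named after its value was seen.

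Transcription factors that have been studied on enamel matrix promoters were called in both directions. Of 18 tested, 7 were called higher, 6 lower and 5 not called, beside 28.8% higher and 28.4% lower among all genes, with a median log2 fold change of 0.20 against 0.01 over all genes. Under total count scaling 11 were called higher and 3 lower. Satb1, a chromatin organiser, fell from 10809 ± 496 normalized counts (SD, n = 4) at P5 to 1940 ± 525 at P12, with -2.48 as its log2 fold change (edgeR adjusted p = 2.1e-07). Sp6, a zinc finger factor of dental epithelium, fell by 1.63 on the log2 scale (adjusted p = 2.5e-05). Cebpd and Cebpa, of the C/EBP family, rose by 2.18 (adjusted p = 1.1e-05) and 1.47 (adjusted p = 3.1e-04). Satb1 and Sp6 were also called lower, and the C/EBP genes higher, under each of the 4 other scalings tried.

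To find the genes whose pattern over the 8 libraries was most like that of each member, profiles of log2(normalized count + 1) were centred on their own mean and compared by the root mean square difference, among 11345 genes with a mean normalized count of at least 100. The minimum was set on a mean and not on each age, so that genes high at P5 alone could pass it, among them Gm13010, Crhr1, Otof and Shh below. All points share the same 8 libraries and the step between ages dominates, so these distances and correlations are descriptions only. Nearest to Ambn were Satb1 (distance 0.18 log2 units, Pearson's r = 0.99), Pip5k1b, which encodes a phosphoinositide kinase (0.19), Mindy4, a deubiquitinase gene (0.22), Pfn2, which encodes an actin-binding profilin (0.22), and Mmp20 (0.22). The profile of Ambn thus had close matches. Satb1, like Ambn, was highest at P12 in replicate 4 and lowest in replicate 1, at 1558, 1589, 1926 and 2686 normalized counts in P12 replicates 1 to 4.

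Nearest to Amelx were the antisense gene Gm13010 (distance 0.29), Ctnna2, which encodes an alpha-catenin (0.48), the non-coding gene AC131339.2 (0.49), Crhr1, a receptor for corticotropin releasing hormone (0.52), and Cst6, a cysteine protease inhibitor gene (0.61). Crhr1 had between 6 and 25 reads in the P12 libraries, so that its P12 level is imprecise. Gm13010 had at most 8 counts in any P12 library. Since the use of strand in counting is not given in the sources used here, its reads may include those of a gene on the other strand, and its value is uncertain. Enam had the lowest fitted log2 fold change of all genes tested, and no profile was as near to it. Its closest matches were Otof, which encodes otoferlin, a protein of vesicle fusion (0.84), Chst1, a keratan sulfate sulfotransferase gene (0.94), Shh, which encodes a signalling protein of dental epithelium (1.25), Papln, a matrix protein gene (1.32), and Ctnna2 (1.63). Otof had between 1 and 8 reads in the P12 libraries and Shh between 3 and 5, so that their P12 levels are imprecise.

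The members were not each other's nearest profiles. Amelx and Enam were 2.08 log2 units apart, Amelx and Ambn 1.69, and Ambn and Enam 3.75, although the correlation across the 8 libraries was 0.993, 0.996 and 0.980. As the step between ages dominates the profiles, these distances and the orders below largely restate the unequal falls given above. Ordered by distance from Enam, Amelx came 9th and Ambn 126th. From Amelx, Ambn came 113th and Enam 241st, and from Ambn, Amelx came 9510th and Enam 11304th of the 11345 genes.

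**Figure D5:**
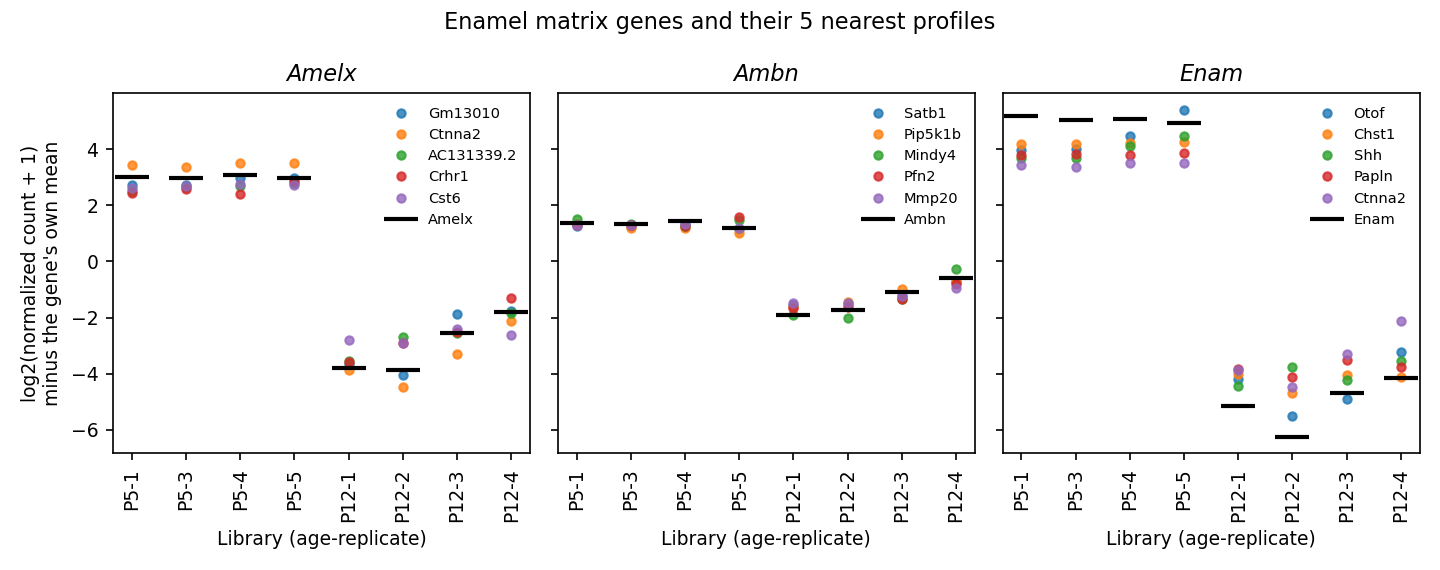
Centred log2(normalized count + 1) of each member (black bars) and of its 5 nearest genes (coloured points) in the 8 libraries, one panel for each member. Points lie close to the bars for Ambn (distances 0.18 to 0.22) and farther from them for Enam (0.84 to 1.63).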

How the data were processed

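The authors deposited whole-number read counts per gene, without normalization, for 8 libraries, with gene names, coordinates and lengths. The submitters' processing notes name CASAVA and the build mm39, yet 53548 of the 54532 gene identifiers have the coordinates of GENCODE M21 for GRCm38, which is used here. The aligner, counting program and strand setting are not given in the sources used here. Within an age, no pair of libraries (12 pairs) was a duplicate, the smallest chi-square divided by its degrees of freedom being 5.11. Columns were matched to libraries by title.

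Counts were compared with edgeR 4.0.16 (filterByExpr, TMM, glmQLFit and glmQLFTest, no covariate) in R 4.3.3, adjusted by Benjamini-Hochberg over 16440 genes. Standard errors are the log2 fold change divided by the root of the F statistic. DESeq2 1.42.0, which the study's methods name, and limma 3.58.1 (voom) were alternatives, with other scalings, filters, left-out libraries and a replicate block. Shares and ratios used exact permutation tests (scipy 1.17.1), and levels per kilobase the deposited gene lengths. Figures used matplotlib 3.10.9. RefSeq promoter sequences (GRCm38.p6) matched all 3 genes.

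The members, the gene lists and the tests were chosen with earlier results of these data known. Named are the members, the 8 genes of the secreted matrix list, up to 4 called genes with the largest change from each other list, the overlapping and next 2 protein-coding genes on each side of a member, and the 5 nearest profiles of each member. Of the marker lists, all dental epithelium genes but 1, which is not reported here, are named, and the others are given by their counts, apart from Dspp. Dmp1, Csn1s1, Csn2, Csn1s2a, Csn1s2b and Relt lie outside this rule and were named after their values were seen.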

Additional observations from a re-analysis of the deposited data

Results flagged for a closer look

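A pair of results stood out because 1 library lay far from the other 3 of its age by Dixon's criterion, and both concern P5 replicate 5. Of the 34 groups of 4 libraries tested in this way 2 passed, where about 1.7 are expected by chance. The log2 ratio of Amelx to Ambn was 0.56 in P5 replicate 5 and 0.41 to 0.42 in the other P5 libraries. Ambn relative to the 8 dental epithelium markers was 3.77 on the log2 scale in that library and at least 3.97 in the others. Both displacements are small beside the differences between the ages, which were -3.34 and -4.09.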

How the results depend on the processing

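The members' log2 fold changes kept their sign and stayed past the threshold in each of 18 other fits. Without one library at a time Enam lay between -10.30 and -9.68, Amelx between -6.27 and -5.50 and Ambn between -2.87 and -2.40, with P12 replicate 4 giving the largest falls. The smallest falls of all these fits came from total count scaling, at -9.59 for Enam, -5.40 for Amelx and -2.21 for Ambn. Shares, ratios and levels against the epithelium kept their sign in every alternative tried, although without a library the exact test cannot go below 0.0571. The count of called genes was 9411 and lay between 8708 and 10030 without one library. It moved to 3541 when a log2 fold change of 1 or more in size was also required, which follows from the added criterion. Of the transcription factors, 11 were called higher and 3 lower under total count scaling, the one alternative (added after the data were seen) that moved a list's counts by over 1.5 times. Replicate numbers did not pair the libraries (correlations of deviations from -0.04 to 0.04 for numbers 1, 3 and 4). With the replicate block over 6 libraries 7710 genes were called, against 8117 in those libraries without it, and Enam was at -9.77, Amelx at -5.72 and Ambn at -2.58. The P12 values of Enam rest on 272 to 980 reads a library, which limits their precision.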
